A study of Mus musculus with 4 samples.

Results

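Transcripts of 8 chemokine ligand genes were followed in T follicular helper (Tfh) cells, CD4 T cells specialized in helping germinal center B cells, of wild-type (WT) and Apoe-deficient (Apoe-/-) mice. The 8 genes are the CXC ligands Cxcl9, Cxcl10 and Cxcl16, the CC ligands Ccl3, Ccl4, Ccl5 and Ccl22, and the XC ligand Xcl1, and they are 8 of the 23997 genes measured. They were taken by name, and the names were chosen from FPKM values of these same libraries, with the result of the genotype comparison known. Their levels and differences are therefore given as a description, and the tests quoted for them come from a fit over all genes and are not independent evidence. There were 2 libraries from WT mice and 2 from Apoe-/- mice, all of the C57BL/6 strain and 13 weeks old, with cells from lymph nodes and spleens. Apoe encodes apolipoprotein E, a lipid carrier of plasma lipoproteins, and its loss makes mice prone to atherosclerosis; the labels give no diet, and none of the mice is stated to carry any other allele or treatment. How the Tfh cells were isolated is not given in the sources used here, and neither is whether replicates come from different animals or from pools, so every p-value measures only how far these libraries differ, and that spread may be technical. The values are FPKM, fragments per kilobase of transcript relative to all mapped fragments, and since they are scaled for transcript length they can be compared between genes.

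Chemokines are small secreted proteins that guide leukocytes along gradients by binding G protein-coupled receptors, and the classes are named after the spacing of the first cysteines of the mature protein. Cxcl9 and Cxcl10 are interferon-induced ligands of Cxcr3, the receptor of Th1-type and cytotoxic T cells. Ccl3, Ccl4 and Ccl5 are inflammatory ligands made by activated and cytotoxic T cells, NK cells and macrophages, Ccl22 is a dendritic cell product that binds Ccr4, Cxcl16 is a membrane-bound ligand of Cxcr6 that also takes up oxidized low-density lipoprotein, and Xcl1 attracts dendritic cells that carry Xcr1. In germinal centers, Tfh cells themselves are positioned by Cxcl13, the ligand of Cxcr5.

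The class of a ligand can be read in its coding sequence. The 30-base stretches of 7 members run from 12 bases before the first codon of the cysteine pair, or of the lone cysteine in Xcl1, and are shown in reading frame from the GENCODE vM21 transcripts, 5′ to 3′, with the TGC and TGT cysteine codons in capitals.
Cxcl9: aggaatgcacgaTGCtccTGCatcagcacc
Cxcl10: aggacggtccgcTGCaacTGCatccatatc
Cxcl16: gtcgctggaagtTGTtctTGTgatcgtacc
Ccl4: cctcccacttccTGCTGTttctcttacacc
Ccl5: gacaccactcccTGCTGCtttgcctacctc
Ccl22: gaagacagtatcTGCTGCcaggactacatc
Xcl1: gaagagagtagcTGTgtgaacttacaaacc
In the CXC ligands 1 codon separates the capitals, in the CC ligands the codons touch, and in Xcl1 there is 1 cysteine codon in the window. Coding sequences were 273 to 378 bases long in 7 of the genes and 738 bases in Cxcl16, whose stalk and membrane part lengthen the protein. Downstream of the first capital codon, 4 cysteine codons were counted, itself included, in all but Cxcl16, which has 7, and Xcl1, which has 2. The longest run of bases shared by any of the 28 pairs of members was 21 bases, between transcripts of Cxcl9 and Cxcl16, and Ccl3 and Ccl4 shared at most 9.

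The promoters of the Cxcr3 ligand genes, which lie next to each other on chromosome 5, and that of Ccl3 are shown because Cxcl10 and Ccl3 moved in opposite directions between the genotypes, while Cxcl9 was near the lower limit of the test. Promoter entries were found for 5 of the 8 members (Cxcl9, Cxcl10, Ccl3, Ccl22 and Xcl1) in RefSeq, build GRCm38.p6. Each holds 250 bases before and 50 bases after the annotated start, 5′ to 3′ on the gene's strand, and capitals mark matches to the motifs named after the sequences.
Cxcl10, chr5:92348840-92349139, minus strand: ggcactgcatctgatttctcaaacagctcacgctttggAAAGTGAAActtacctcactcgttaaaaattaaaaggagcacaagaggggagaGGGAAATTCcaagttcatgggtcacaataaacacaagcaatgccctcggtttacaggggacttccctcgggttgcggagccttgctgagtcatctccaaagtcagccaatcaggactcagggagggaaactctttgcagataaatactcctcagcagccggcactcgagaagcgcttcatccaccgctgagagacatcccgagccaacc
Cxcl9, chr5:92328030-92328329, minus strand: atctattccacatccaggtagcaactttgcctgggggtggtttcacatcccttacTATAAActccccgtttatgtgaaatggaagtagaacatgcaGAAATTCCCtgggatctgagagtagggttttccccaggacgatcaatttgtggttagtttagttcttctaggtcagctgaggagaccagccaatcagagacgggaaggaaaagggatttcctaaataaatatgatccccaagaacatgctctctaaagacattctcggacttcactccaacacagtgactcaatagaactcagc
Ccl3, chr11:83649329-83649628, minus strand: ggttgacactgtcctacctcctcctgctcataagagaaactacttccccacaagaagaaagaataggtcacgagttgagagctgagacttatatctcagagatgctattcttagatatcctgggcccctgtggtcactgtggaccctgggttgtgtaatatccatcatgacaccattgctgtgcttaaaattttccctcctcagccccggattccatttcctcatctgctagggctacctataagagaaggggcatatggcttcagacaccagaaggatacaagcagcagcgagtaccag
Both strands were searched for TTTCNNTTT, the core of the interferon-stimulated response element, TTCNNNGAA, the STAT palindrome, GGGANNTTC, an NF-kB core, and TATAAA. The Cxcl10 promoter held the interferon element core on the other strand (AAAGTGAAA, bases -212 to -204 from the start) and an NF-kB core (GGGAAATTC, -159 to -151). The Cxcl9 promoter held an NF-kB core on the other strand (GAAATTCCC, -154 to -146) and a TATAAA at -195 to -190, and no 2 of these 4 matches overlap. These letters were not found in the windows of Ccl3, Ccl22 and Xcl1. Of 32851 promoters of this length, 10.6% held the interferon element core, 8.3% the STAT palindrome, 3.94% the NF-kB core and 13.6% TATAAA, so the matches are a description and not mapped binding sites.

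Apoe itself was measured at 145 and 128 FPKM in WT libraries and at 5.09 and 5.21 FPKM in libraries of Apoe-/- mice, a log2 difference of -4.48 ± 0.112 (SE; limma, adjusted p = 0.000315). FPKM totals were 522371 to 551289 per library, with 11084 to 11251 genes at 1 FPKM or more, and read depth is unknown. The 8 Tfh and T cell markers with a row summed to 1644 and 1655 FPKM in WT and to 1671 and 1654 FPKM in Apoe-/- libraries, with 3 of the 8 higher and 2 lower in Apoe-/- libraries without overlap, so these sums hold moves in both directions. Cxcr5 had means of 169 and 213 FPKM and Bcl6 95.3 and 112 FPKM (WT, then Apoe-/-). Pdcd1 and Sh2d1a, the 2 lower ones, had means of 271 and 191 FPKM and of 251 and 226 FPKM. Over the genes tested below, 27.5% were higher and 22.9% lower without overlap. Differences are given as Apoe-/- minus WT on the log2(FPKM + 1) scale, which understates changes of low genes, for the 11187 genes with a mean of 1 FPKM or more; each adjusted p is from limma, with Benjamini-Hochberg adjustment over all of them and a threshold of 0.05. Libraries that carry the same replicate number share ratios among their lowest values, so the difference within each number is given beside the main results.

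Of the 8 ligands, 6 reached the level for testing. Cxcl10 fell in Apoe-/- cells, Ccl3 and Ccl5 rose, and Cxcl16, Ccl4 and Xcl1 did not pass. Over all tested genes, 0.948% were called higher and 0.885% lower. Cxcl9 and Ccl22 were below 1 FPKM on average and were not tested; Cxcl16, with a mean of 1.18 FPKM over the 4 libraries, was the tested ligand nearest to that limit, and Cxcl9, at 0.893 FPKM, the nearest below it. The 6 tested ligands had a median difference of 0.67, within replicate numbers 0.90 and 0.57, against 0.00029 over all tested genes. In all 6 the groups did not overlap, with 5 higher and 1 lower in Apoe-/- cells, and over all tested genes the groups did not overlap in 27.5%, upward, and in 22.9%, downward. Since the members were picked with these results known, nothing is read from these counts.

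**Figure D1:**
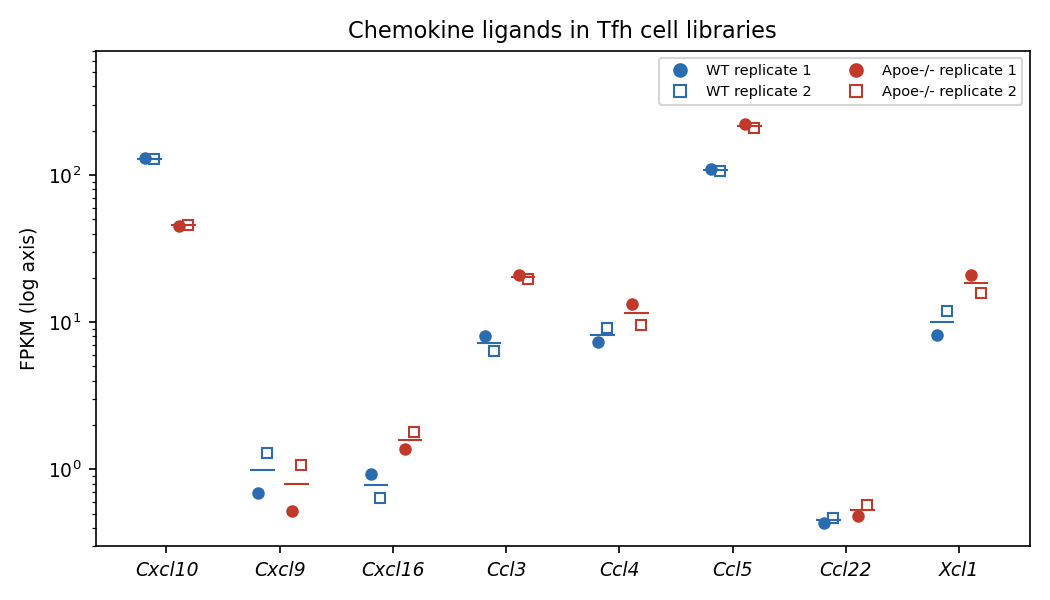
FPKM of the 8 chemokine ligands (x axis) on a log axis (y axis) in the 2 WT and 2 Apoe-/- libraries; points are libraries and short lines are group means. The mean of Cxcl10 is 129 FPKM in WT against 45.6 FPKM in Apoe-/- cells, that of Ccl5 108 against 215 FPKM, and Cxcl9 is the ligand whose groups overlap.

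Cxcl10 (chromosome 5, 92346638 to 92348889, GRCm38) was the highest of the 8 ligands in WT cells. It was measured at 130 and 129 FPKM in WT and at 45.4 and 45.9 FPKM in Apoe-/- libraries. Both Apoe-/- values were far below both WT values, and the libraries of each genotype were nearly equal. The mean thus went from 129 ± 0.927 to 45.6 ± 0.344 FPKM (SD, n = 2), 2.84-fold lower in Apoe-/- cells, with a log2 difference of -1.48 ± 0.0889 (SE, adjusted p = 0.00802). Libraries numbered 1 differed by -1.50 and those numbered 2 by -1.47. By mean FPKM, Cxcl10 ranked 583 among all genes in WT and 2022 in Apoe-/- cells. The gene shares 133 of its 2252 exon bases, pooled over all its transcripts, with Art3, a gene on the opposite strand. The coding transcript of Cxcl10 has 1094 bases. Since a strand setting is not given, reads in the shared bases cannot be told apart. Art3 was at 2.13 to 3.32 FPKM in all 4 libraries and did not pass the test.

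Cxcl9 (chromosome 5, 92321331 to 92328079), the neighboring Cxcr3 ligand, was listed at far lower levels. It was measured at 0.687 and 1.30 FPKM in WT and at 0.520 and 1.07 FPKM in Apoe-/- libraries. The groups overlapped, and replicate number 2 was the higher library in both genotypes. The log2 difference was -0.15, the same within each number, and turned to 0.07 without WT replicate 2 or without Apoe-/- replicate 1. Cxcl10 exceeded Cxcl9 by 189-fold and 99.4-fold in WT and by 87.3-fold and 43.0-fold in Apoe-/- libraries, ratios that carry the noise of the low Cxcl9 values. The third ligand of Cxcr3 known from other species, Cxcl11, is a pseudogene in this annotation and was listed at 0 to 0.257 FPKM.

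Ccl5 (chromosome 11, 83525778 to 83530518), also called RANTES, was the highest ligand in Apoe-/- cells. It was measured at 110 and 106 FPKM in WT and at 222 and 208 FPKM in Apoe-/- libraries. Both Apoe-/- libraries were well above both WT libraries. The mean was 1.99-fold higher, at 215 ± 9.52 against 108 ± 2.54 FPKM (SD, n = 2), with a log2 difference of 0.99 ± 0.0887 (SE, adjusted p = 0.0148), 1.01 within number 1 and 0.97 within number 2. Its rank by mean FPKM went from 729 in WT to 311 in Apoe-/- cells.

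Ccl3 (chromosome 11, 83647843 to 83649378), macrophage inflammatory protein 1 alpha, is a ligand of Ccr1. It was measured at 7.99 and 6.34 FPKM in WT and at 21.0 and 19.6 FPKM in Apoe-/- libraries. The groups were clearly separate. The mean was 2.83-fold higher, at 20.3 ± 1.01 against 7.17 ± 1.17 FPKM (SD, n = 2), with a log2 difference of 1.39 ± 0.140 (SE, adjusted p = 0.0188), 1.29 within number 1 and 1.49 within number 2. With all genes above 0 tested, the adjusted p of Ccl3 was 0.0605, and over the 12 fits it ranged from 0.000249 to this value.

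Ccl4 (chromosome 11, 83648624 to 83664683 with a predicted transcript) is macrophage inflammatory protein 1 beta. It was measured at 7.33 and 9.11 FPKM in WT and at 13.4 and 9.58 FPKM in Apoe-/- libraries. The groups did not overlap, but Apoe-/- replicate 2 lay just above WT replicate 2. The log2 difference was 0.43 ± 0.190 (SE, adjusted p = 0.296), 0.79 within number 1 and 0.07 within number 2. Ccl3 was measured at 1.09 and 0.696 times the Ccl4 level in WT libraries and at 1.57 and 2.05 times in Apoe-/- libraries, without overlap of the groups. This difference was not tested. With the predicted transcript, Ccl4 overlaps the span of Ccl3, which lies on the opposite strand, though their GENCODE exons share no bases. The annotation and strand setting behind the values are not given, so reads in any shared bases could not be told apart. Ccl22 (chromosome 8, 94745684 to 94751388), the ligand of Ccr4, was listed at 0.432 and 0.466 FPKM in WT and at 0.484 and 0.575 FPKM in Apoe-/- libraries. All 4 values were close together and too low for the test.

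Xcl1 (chromosome 1, 164931644 to 164935522), lymphotactin, was measured at 8.24 and 11.9 FPKM in WT and at 21.1 and 15.7 FPKM in Apoe-/- libraries. Both Apoe-/- libraries were higher than both WT libraries, but the libraries of a genotype differed from each other more than for Ccl5 or Ccl3. The log2 difference was 0.81 ± 0.216 (SE, adjusted p = 0.132), 1.26 within number 1 and 0.37 within number 2. Without Apoe-/- replicate 2 it was 1.01 with an adjusted p of 0.0092, in a range of 0.0092 to 0.320 over the 12 fits. Of the 523 exon bases of Xcl1, 98 are shared with Gm20743 on the opposite strand, which was at 0.112 to 0.398 FPKM.

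Cxcl16 (chromosome 11, 70454389 to 70459984) was measured at 0.931 and 0.636 FPKM in WT and at 1.37 and 1.78 FPKM in Apoe-/- libraries. Both Apoe-/- libraries were above both WT libraries, and it was the Apoe-/- values that brought the gene over the limit for testing. The log2 difference was 0.53 ± 0.166 (SE, adjusted p = 0.170), 0.29 within number 1 and 0.77 within number 2. Cxcl16 shares 552 of 3021 exon bases with Zmynd15 on the opposite strand, listed at 0.0886 to 0.345 FPKM.

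By level, the 8 ligands fell into a high pair, a middle group and a low group in both genotypes. In WT cells, Cxcl10 stood above Ccl5, and both were well above every other ligand of the set. Xcl1, Ccl4 and Ccl3 followed, and neighbors in that order overlapped, as did Cxcl9 and Cxcl16 in the low group, with Ccl22 below them. In Apoe-/- cells the order was Ccl5, Cxcl10, Ccl3, Xcl1, Ccl4, Cxcl16, Cxcl9 and Ccl22, and the overlapping neighbors were Ccl3 with Xcl1 and Cxcl9 with Ccl22.

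The make-up of the ligand transcripts differed more between genotypes than their sum. Over the 41 chemokine ligand genes with a row, summed FPKM was 281 and 284 in WT and 355 and 336 in Apoe-/- libraries, and the 8 ligands made up 90.2% to 94.5% of it. Cxcl10 took 46.3% and 45.3% of the sum in WT and 12.8% and 13.7% in Apoe-/- libraries. Ccl5 took 39.1% and 37.4% in WT and 62.4% and 62.1% in Apoe-/- libraries, and Ccl3 2.84% and 2.23% against 5.91% and 5.84%. The ratio of Cxcl10 to Ccl5 was 1.18 and 1.21 in WT and 0.205 and 0.220 in Apoe-/- libraries. Cxcl10 was thus the leading ligand transcript in both WT libraries and Ccl5 in both Apoe-/- libraries.

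**Figure D2:**
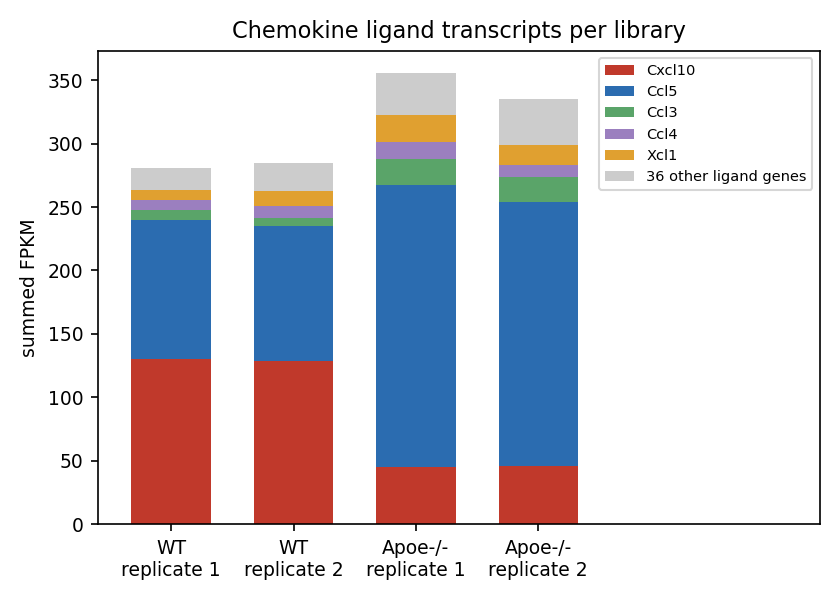
Summed FPKM (y axis) of the 41 chemokine ligand genes in each of the 4 libraries (x axis), stacked by gene, with the other 36 genes summed in grey. Cxcl10 takes 46.3% and 45.3% of the bar of WT replicates 1 and 2 and 12.8% and 13.7% of the Apoe-/- bars, in which Ccl5 takes 62.4% and 62.1%.

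Beside the 8 members, 33 other chemokine ligand genes had a row. Of these, 27 were below 1 FPKM on average, 9 of them at 0 in every library, and 6 were tested, with a median difference of 0.51. Ccl6 and Ccl9, myeloid ligands of Ccr1 in mice, rose, and none fell. Ccl6 was measured at 1.73 and 1.60 FPKM in WT and at 8.50 and 9.03 FPKM in Apoe-/- libraries, a log2 difference of 1.87 ± 0.121 (SE, adjusted p = 0.00802), 1.799 within number 1 and 1.95 within number 2. Ccl9 was listed at 0.394 and 0.500 FPKM in WT and at 2.59 and 2.53 FPKM in Apoe-/- libraries, a difference of 1.30 ± 0.134 (adjusted p = 0.0198), and it reached the limit for testing through the Apoe-/- libraries. Cxcl2, which attracts neutrophils, had means of 6.63 and 8.99 FPKM (WT, then Apoe-/-; adjusted p = 0.263). Cxcl13, the ligand of Cxcr5, had means of 1.35 and 2.05 FPKM (adjusted p = 0.400) and Ccl25, a thymic and intestinal ligand, 2.17 and 1.85 FPKM (adjusted p = 0.855). Ccl27a, whose reads near-identical copies of the gene could share, had means of 2.66 and 4.59 FPKM (adjusted p = 0.0827).

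**Figure D3:**
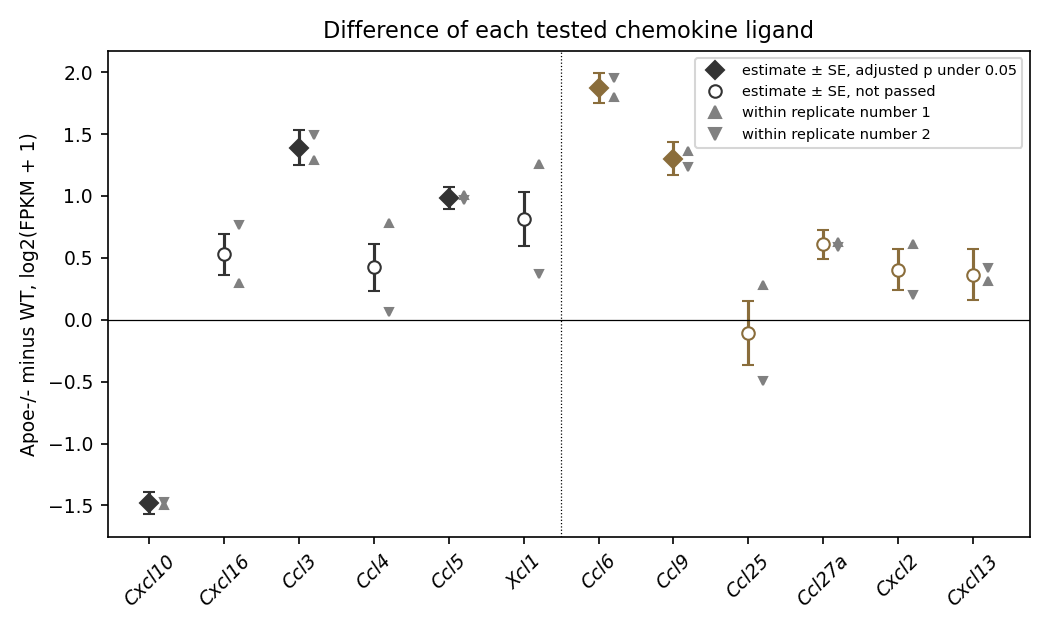
Apoe-/- minus WT difference on the log2(FPKM + 1) scale (y axis) of the tested members, left of the dotted line, and of the 6 other tested ligands, right of it. Diamonds passed the adjusted p threshold of 0.05, open circles did not, bars are SE and triangles are differences within replicate numbers 1 and 2. The triangles of Cxcl10, at -1.50 and -1.47, and of Ccl5, at 1.01 and 0.97, nearly coincide, while those of Ccl4 and Xcl1 lie apart.

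Ccl5, Ccl9, Ccl6, Ccl3 and Ccl4 lie in this order on chromosome 11. Within 0.1 Mb of this stretch 15 genes had a row and 9 were tested, in a window set after the values were known. The 4 that rose were Ccl5, Ccl9, Ccl6 and Ccl3. Heatr9, the gene next to Ccl5, was below the limit for testing, at 0.285 and 0.232 FPKM in WT and at 0.593 and 0.540 FPKM in Apoe-/- libraries, higher without overlap. Farther out, 1700020L24Rik, Taf15 and Heatr6 did not pass, with differences of 0.39, -0.19 and -0.17 and adjusted p-values of 0.446 to 0.466. Wfdc17, next to Ccl4, was measured at 3.54 and 1.92 FPKM in WT and at 4.46 and 12.3 FPKM in Apoe-/- libraries, a spread that left it short of the threshold (difference 1.23 ± 0.449 SE, adjusted p = 0.221). Around Cxcl9 and Cxcl10 on chromosome 5, 9 genes had a row and 6 were tested in a window of the same width, and Cxcl10 was the one called. Its neighbors Naaa, Sdad1, Art3, Nup54 and Scarb2 had differences of 0.18, 0.08, 0.28, -0.11 and -0.18, with adjusted p-values of 0.358 to 0.747.

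**Figure D4:**
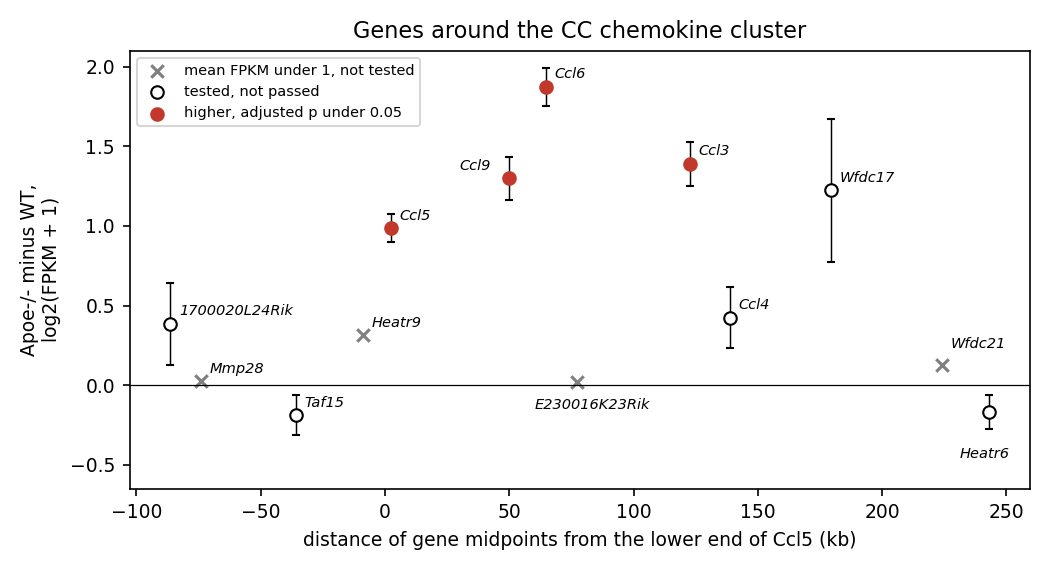
Apoe-/- minus WT difference on the log2(FPKM + 1) scale (y axis, bars are SE) of genes within 0.1 Mb of the stretch from Ccl5 to Ccl4, by distance in kb from the lower end of Ccl5 (x axis); points are at gene midpoints, except Ccl4, at its upper end. Filled points, Ccl5, Ccl9, Ccl6 and Ccl3, passed the threshold, crosses were not tested, and genes listed at 0 in every library are left out.

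By distance of log2(FPKM + 1), each gene centered on its mean over the 4 libraries, the 3 genes most like Cxcl10 among 11073 tested genes outside all lists included Maff, a small Maf transcription factor, and Slc2a6, a sugar transporter. Maff averaged 60.5 FPKM in WT against 21.6 FPKM in Apoe-/- cells (distance 0.123), and Slc2a6 averaged 7.87 against 2.39 FPKM (distance 0.133). The genes most like Ccl5 were Pnck, a kinase, at 1.69 and 4.35 FPKM (distance 0.0743), A930006K02Rik at 3.27 and 7.26 FPKM, and Cirbp, a cold-inducible RNA-binding protein, at 85.2 and 178 FPKM (distance 0.0792 each). This likeness is a description over 4 libraries.

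Among 9 receptors that bind these ligands, 5 were tested, 1 rose and none fell, with a median difference of -0.23. Cxcr3, the receptor of Cxcl9 and Cxcl10, was measured at 69.2 and 63.4 FPKM in WT and at 122 and 106 FPKM in Apoe-/- libraries, the opposite direction to Cxcl10 (difference 0.77 ± 0.112 SE, adjusted p = 0.0442, 0.80 within number 1 and 0.74 within number 2). That call held in 6 of 12 fits. It was lost without either WT library, under each other filter on low values, with libraries rescaled to a common FPKM total and without a variance trend. Ccr4, the receptor of Ccl22, was at 16.3 and 16.4 FPKM in WT and at 11.05 and 11.63 FPKM in Apoe-/- libraries (adjusted p = 0.0938). Cxcr6, the receptor of Cxcl16, had means of 10.3 and 8.56 FPKM (adjusted p = 0.381) and Ccr3, which binds Ccl5, 3.71 and 2.37 FPKM (adjusted p = 0.312). Without Apoe-/- replicate 2, Ccr3 was called lower (adjusted p = 0.0212, in a range up to 0.758 over its fits). Ccr1, Xcr1, Ackr1 and Ackr2 were below 1 FPKM in every library. Of 5 proteases that shed or trim chemokines, 4 were tested and none passed, nor was any at an unadjusted p under 0.05 (limma, 0 of 4). Adam10, which sheds Cxcl16, had means of 41.4 and 37.0 FPKM, and Dpp4, which trims Cxcl10, 27.3 and 32.5 FPKM. Mmp9 was too low for the test. It was listed at 0.587 and 0.533 FPKM in WT and at 1.36 and 1.21 FPKM in Apoe-/- libraries, higher without overlap.

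Cxcl10 is itself induced by interferon-gamma, so other genes induced by it were read beside its fall. Of 24 such genes 23 were tested and limma called none, with 1 higher and 4 lower at an unadjusted p under 0.05, which 11.6% of all tested genes reached upward and 8.3% downward. Their median difference was 0.04, with 12 genes above 0 and 11 below. Cd274, encoding PD-L1, had means of 45.2 and 26.9 FPKM in WT and Apoe-/- cells (adjusted p = 0.0550) and Irf1 174 and 131 FPKM (adjusted p = 0.0916), whereas Tap1, a peptide transporter, had 131 and 165 FPKM (adjusted p = 0.197). Ifng itself was measured at 83.7 and 92.6 FPKM in WT and at 127 and 138 FPKM in Apoe-/- libraries, which did not overlap but did not pass (difference 0.58 ± 0.103 SE, adjusted p = 0.0693).

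Of 12 regulators of the T cell ligands, 2 rose and none fell, with a median difference of 0.08. Both that rose are receptor chains for interleukin-18, a cytokine that with interleukin-12 drives interferon-gamma. Il18rap was measured at 2.29 and 2.48 FPKM in WT and at 8.05 and 9.81 FPKM in Apoe-/- libraries (difference 1.55 ± 0.140 SE, adjusted p = 0.0148), and Il18r1 at 7.01 and 8.58 FPKM against 16.55 and 21.96 FPKM (1.196 ± 0.175 SE, adjusted p = 0.0450). The Il18r1 call was lost without WT replicate 1 and under each other filter on low values, and the Il18rap call with all genes above 0 tested. Tbx21, encoding T-bet, had means of 12.4 and 13.0 FPKM (adjusted p = 0.811) and Klf13, a regulator of Ccl5 in T cells, 41.0 and 33.4 FPKM (adjusted p = 0.200). Irf4 had means of 29.6 and 18.9 FPKM (adjusted p = 0.0594).

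Markers of other cells that can make these ligands were read in the same libraries. Since these are bulk samples, fewer cells of a type and less RNA per cell cannot be told apart. Beside the higher Ccl5 and Ccl3, the 14 CD8 T and NK markers summed to 75.9 and 76.0 FPKM in WT and to 136 and 145 FPKM in Apoe-/- libraries, with 2 of 11 tested higher, Nkg7 (22.2 against 53.7 FPKM) and Gzmk (23.5 against 42.9 FPKM), both also made by CD4 T cells. These 2 genes held most of the sum in each library. The Gzmk call held in 9 of 12 fits, and was lost without either WT library and with all genes above 0 tested. Over the tested genes of that list, 8 of 11 were higher without overlap, against 27.5% of all tested genes. Among the 8 were Cd8b1, at 5.65 and 8.24 FPKM on average in WT and Apoe-/- cells (adjusted p = 0.108), and the NK receptor Klrd1, at 2.33 and 6.28 FPKM (adjusted p = 0.124). Gzma, Klrg1 and Eomes overlapped between the genotypes, and Gzma had means of 2.92 and 2.24 FPKM (adjusted p = 0.557). Cd8a, a CD8 T cell marker, and Ncr1, an NK cell marker, were too low for the test. Their means were 0.595 and 1.07 FPKM and 0.106 and 0.288 FPKM, both higher without overlap. Klra8, also too low, was listed at 0.0944 and 0.0804 FPKM in WT and at 0 in both Apoe-/- libraries. The part of CD8 T and NK cells in the ligand differences was not tested.

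Myeloid markers were read beside Ccl3, Ccl6 and Ccl9. The 10 neutrophil markers summed to 9.20 and 7.45 FPKM in WT and to 50.04 and 66.78 FPKM in Apoe-/- libraries, most of it S100a8 and S100a9 in each library. The 4 that were tested, S100a8, S100a9, Retnlg and Csf3r, were called higher, Retnlg having reached the limit only through the Apoe-/- libraries. Camp and Elane were at 0, Ngp, Ltf and Mpo at 0.0452 FPKM or less, and Cxcr2 below 1 FPKM in every library. S100a8 went from 2.53 to 25.1 FPKM. Csf3r was called in 8 of its 11 fits, not without either WT library or with all genes above 0 tested. The 14 macrophage and monocyte markers summed to 283 and 250 FPKM in WT and to 353 and 314 FPKM in Apoe-/- libraries. C1qa, C1qb and C1qc held most of that sum in each library, and none of them passed. In this list 1 of 14 was called higher and none lower. It was Vsig4 (0.0738 against 3.49 FPKM), which reached the limit through the Apoe-/- libraries. Without overlap 6 were higher and 2 lower, against 27.5% and 22.9% of all tested genes. The 2 lower were Adgre1 (10.6 against 9.49 FPKM) and Ms4a7 (1.58 against 1.23 FPKM), while Cd68 and Mertk overlapped. The 13 dendritic cell markers summed to 90.1 and 81.3 FPKM in WT and to 72.9 and 71.5 FPKM in Apoe-/- libraries. Without Ccr7, which is also a T cell gene, the other 12 summed to 23.4 and 22.6 FPKM in WT and to 36.2 and 39.6 FPKM in Apoe-/- libraries. Leaving out Ccr7 was not planned, and it turns the direction of the list sum. Among 10 tested, Itgax was called higher (3.67 against 9.14 FPKM) and Ccr7 lower (62.7 against 34.3 FPKM). The median difference was 0.64, and 8 were higher without overlap, against 27.5% of all tested genes. Of these 8, Clec10a (0.394 against 1.62 FPKM) and Zbtb46 (0.949 against 1.33 FPKM) reached the limit through the Apoe-/- libraries. Xcr1 and Clec9a stayed below 1 FPKM. Itgax was called in 10 of 12 fits, not without WT replicate 2 or with all genes above 0 tested. The Ccr7 call held in 6 of 12. It was lost without either WT library, under each other filter on low values, with quantile normalization and without a variance trend. Vsig4 was called in 10 of its 11 fits, not with all genes above 0 tested. Their part in the ligand differences was not tested.

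Beside the fall of Cxcl10, the 11 B cell markers summed to 346 and 341 FPKM in WT and to 212 and 201 FPKM in Apoe-/- libraries, and 4 of 11 fell, Cd22, Fcer2a and Cr2 among them. All 11 were lower without overlap, against 22.9% of all tested genes. Fcer2a had means of 16.6 and 6.48 FPKM, Cr2 10.7 and 3.79 FPKM and Cd22 46.8 and 26.9 FPKM. Fcer2a was called in 12 of 12 fits. Cd22 was called in 9, not without either WT library or with all genes above 0 tested. Cr2 was also called in 9, not without WT replicate 2 or under each other filter on low values. The differences of Cr2 and Fcer2a were -1.29 and -1.24 and the list median was -0.72, beside -1.48 for Cxcl10, and whether B cells or their RNA had a part in the fall was not tested. Platelet and stroma markers were near 0 except Pecam1, the 1 gene of that list that was tested and did not pass (limma, none of 1 at an unadjusted p under 0.05), and the Tfh and T cell list had none of 8 called (limma, 2 higher and 1 lower at an unadjusted p under 0.05, against the 11.6% and 8.3% of all tested genes).

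**Figure D5:**
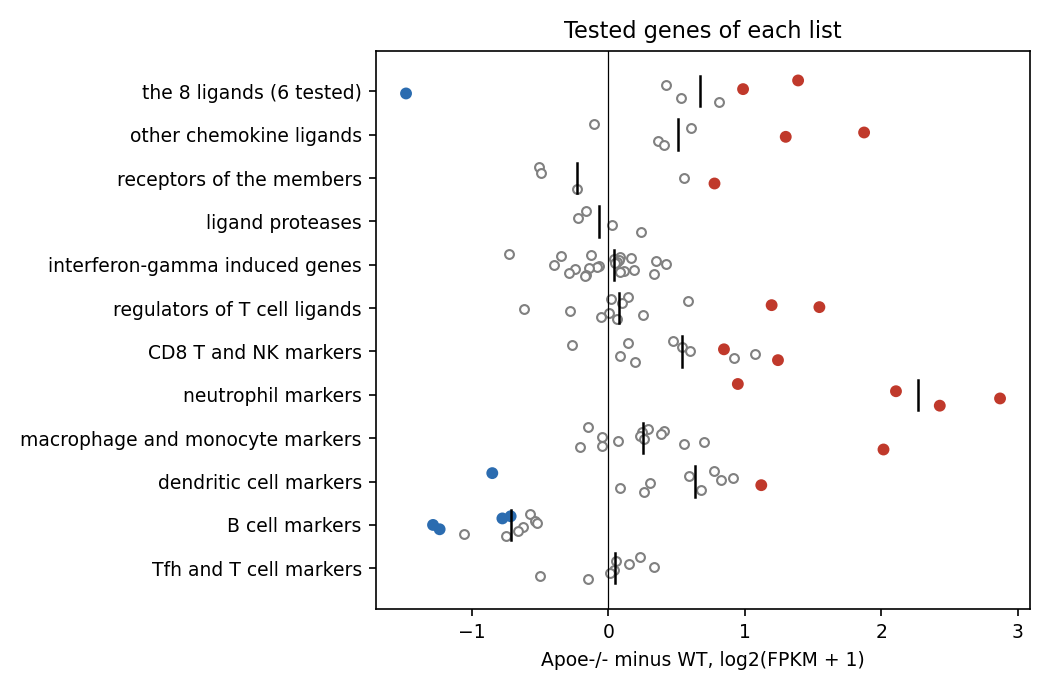
Apoe-/- minus WT difference on the log2(FPKM + 1) scale (x axis) of each tested gene of the 12 lists shown (y axis). Filled points passed the adjusted p threshold of 0.05, red higher and blue lower, and black bars are list medians. Cxcl10 is the filled blue point of the 8 ligands at -1.48, the B cell markers have a median of -0.72 and the interferon-gamma induced genes one of 0.04.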

How the data were processed

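Total RNA of the cells was extracted with a mirVana kit and sequenced on Illumina libraries, per the labels' protocols. The deposited table holds FPKM per gene symbol and library, computed by the authors; the submitters' processing notes list TopHat2 2.0.13, Cuffdiff 2.2.0, CASAVA 1.8.2 and the build mm10 without settings. The annotation used, any strand setting and any filter have no mention in these sources. In 2 of the 23997 rows a space stood for a tab, and these were split on white space. FPKM are not counts, so log2(FPKM + 1) of the 11187 genes with a mean of at least 1 FPKM was compared with limma 3.58.1 in R 4.3.3 (lmFit, eBayes with a trend, two-sided, Benjamini-Hochberg, threshold 0.05). With 2 libraries against 2, the smallest p a two-sided permutation test can give is 0.333, so no such test was used. The procedure was tested on simulated data.

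The members and the gene lists were chosen with earlier results of these data known. Of 167 list symbols, 166 had a row, 1 of them under an older symbol. Named beside the members are the other ligands and the receptors that reached the filter, the list genes that passed and the 3 genes nearest in pattern to Cxcl10 and to Ccl5. A few of these genes and 1 coding stretch are not reported here. Other list genes, neighboring genes and the gene windows were named after their values were seen. Positions are those of RefSeq on GRCm38, and shared exon bases and coding stretches those of GENCODE vM21. Exon bases are pooled over all transcripts of a gene. The coding stretches were added after the files were seen.

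Among genes of 0.001 to 0.15 FPKM in both libraries of a pair, 1 ratio was common to 19.0% of 1028 genes between the libraries numbered 1 and to 18.2% of 1084 genes between those numbered 2 (within 0.04 on the log2 scale), against 4.32% to 6.29% in the other 4 pairs. Whole reads were not recovered. Nothing in the labels ties equal numbers to a shared source, and they enter the comparison as a block only among the alternatives. The alternatives tried were another pseudocount, filters and normalizations, no variance trend, a block and leaving out each library.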

Additional observations from a re-analysis of the deposited data

How the results depend on the processing

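Cxcl10 and Ccl5 kept their direction and their call in all 12 fits, with adjusted p-values of 3.25e-05 to 0.0293 and of 0.000545 to 0.0407. Ccl3 kept its call in 11 of 12. With all genes above 0 tested, 1 member was called higher in place of 2 (Ccl3 had an adjusted p of 0.0605), and over all genes 35 were called higher and 41 lower, against 106 and 99. With a minimum mean of 5 FPKM, 51 genes were called higher and 1 other ligand, Ccl6, was called in place of 2, since Ccl9 was below that minimum. Leaving out each library in turn gave 54 to 317 genes higher and 61 to 301 lower; where this leaves a genotype with 1 library, that library is assumed to vary like the others. Xcl1 passed in 2 of 12 fits. Ccl4 and Cxcl16 passed in none. Equal replicate numbers are shared by 2 pairs of libraries and are tied to nothing in the labels (correlation of deviations 0.214). With the replicate number as a block, 1908 genes were called higher and 1776 lower. Xcl1 and the other ligand Ccl27a were then called higher (adjusted p = 0.0386 and 0.0114) and the receptors Ccr4 and Ccr3 lower (0.00705 and 0.0402). The median difference of all tested genes lay within -0.0432 to 0.0437 in every fit. FPKM without depth limit what can be said of Cxcl9, Cxcl16 and Ccl22, near or below 1 FPKM.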

Other observations

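Among the 27 other ligands below 1 FPKM on average, Cxcl1 and Ppbp, which act on neutrophils through Cxcr2, were listed at 0.103 to 0.165 and 0.0952 to 0.441 FPKM in the WT libraries and at 0 in both Apoe-/- libraries. Cxcl14 was listed at 0 in both WT libraries and at 0.0372 and 0.114 FPKM in the Apoe-/- libraries. Cxcl12, the stromal ligand of Cxcr4, was at 0.0432 and 0.0895 FPKM in WT and at 0.220 and 0.237 FPKM in Apoe-/- libraries. Ccl28 was at 0.0221 and 0.0335 FPKM in WT and at 0.162 and 0.234 FPKM in Apoe-/- libraries. These genes were picked after their values were seen, and none was tested. The dendritic cell ligand Ccl17, which like Ccl22 binds Ccr4, was listed at 0 in 1 library of each genotype.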
